A study of Arabidopsis thaliana with 9 samples.

Results

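The transcriptome described here is that of wild type Arabidopsis thaliana seedlings exposed to cadmium. The libraries were the 3 columns labelled WT_1, WT_2 and WT_3, called wild type replicates 1, 2 and 3 below, out of 9 libraries in the series. All 26973 listed genes were ranked by their mean over these 3 libraries. The seedlings carried no transgene according to their label, their titles name the strain as Colombia, and they were treated with 100 µM cadmium for 6 h. The other 6 libraries, from the OXmiR400 and OXrPPR1 lines under the same treatment, were not used. No untreated wild type was analysed here, so the values are levels in cadmium-treated seedlings and carry no information on what cadmium changed. With 1 group there was nothing to test, and each value is given with the spread of the 3 libraries. The labels do not say whether the libraries came from separate cultures, so this spread may be technical, and they give no seedling age.

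Green seedlings spend much of their messenger RNA on photosynthesis and translation. Light-harvesting proteins bind chlorophyll and pass excitation energy to photosystems I and II, which feed the Calvin cycle enzyme Rubisco. Cadmium is a toxic metal that plant cells bind with metallothioneins, small cysteine-rich proteins, and with phytochelatins, which are polymers made from glutathione. Glutathione in turn needs cysteine from sulfate assimilation.

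The unit is FPKM, fragments per kilobase of exon and per fixed number of sequenced fragments, which puts long and short genes on 1 scale. From the spacing of low values, the depth came to 12.7, 17.1 and 15.1 M units (reads or fragments) in replicates 1, 2 and 3. Pearson's r across genes was taken on log2(FPKM + 1) in the 10573 genes averaging 10 FPKM or more. It was 0.943 between replicates 1 and 2, 0.954 between replicates 1 and 3 and 0.954 between replicates 2 and 3. Genes are not independent replicates, so these are descriptions. The tissue label was checked against marker genes. All 10 root markers reached 1 FPKM, as did 71.8% of all listed genes, and 5 of the 10 reached 10 FPKM. CASP1 of the endodermis measured 25.8, 28.8 and 29.4 FPKM. COBL9, WER, RHD6 and EXPA7, named after their values were seen, averaged only 1.37, 2.06, 2.12 and 5.30 FPKM. Of 8 shoot markers 7 reached 1 FPKM, and GL1, a trichome regulator named after its values were seen, lay at 0.472 ± 0.254 FPKM (SD, n = 3). Of 3 flower markers 1 did so, PI at 1.26 ± 0.238 FPKM, and of 8 seed markers none did so, with a summed level of 0.779, 1.95 and 0.407 FPKM. Counts over 1 FPKM say little, since most listed genes reached that floor. The root marker PYK10 averaged 2417 FPKM, and the shoot markers RBCS1A and CAB3 averaged 2678 and 2461 FPKM. Of the 8 shoot markers 4 reached 10 FPKM, as did 10573 of all 26973 listed genes. SPCH and STM, named after their values were seen, averaged 2.26 and 5.21 FPKM. By the abundant markers, the libraries held root and shoot transcripts together. In RNA from whole seedlings, fewer cells of a type and less RNA per cell cannot be told apart.

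The sequences just upstream of 6 abundant genes are shown because CAB1 and LHB1B2 are the 2 most abundant loci and the other 4 lead the Rubisco, metallothionein, beta-glucosidase and ribosomal groups described below. Each is the stretch of 100 bases that ends 1 base before the annotated gene start, in RefSeq's TAIR10.1 assembly, printed 5′ to 3′ on the gene's strand. Capitals mark 5 motifs searched on both strands, namely the TATA box TATAAA, the telo-box AAACCCTA, the site II element TGGGCC, the G-box CACGTG and the I-box core GATAAG. The letters of these motifs share no overlap in the windows printed. The CAB1 window is chr1:10477785-10477884 (plus strand), LHB1B2 chr2:14523569-14523668, RBCS1A chr1:25049668-25049767, MT2B chr5:507245-507344, PYK10 chr3:2843782-2843881 and AT4G27090 chr4:13595253-13595352 (all minus strand).
CAB1: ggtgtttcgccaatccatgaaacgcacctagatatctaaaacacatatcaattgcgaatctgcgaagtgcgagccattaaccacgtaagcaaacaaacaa
LHB1B2: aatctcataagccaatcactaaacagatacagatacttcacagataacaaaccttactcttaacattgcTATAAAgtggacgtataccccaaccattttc
RBCS1A: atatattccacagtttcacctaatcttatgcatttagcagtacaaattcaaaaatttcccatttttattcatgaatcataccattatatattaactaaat
MT2B: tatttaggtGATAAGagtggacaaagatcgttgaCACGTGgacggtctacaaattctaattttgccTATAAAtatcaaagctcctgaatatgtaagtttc
PYK10: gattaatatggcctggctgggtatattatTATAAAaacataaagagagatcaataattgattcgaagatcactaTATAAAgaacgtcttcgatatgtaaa
AT4G27090: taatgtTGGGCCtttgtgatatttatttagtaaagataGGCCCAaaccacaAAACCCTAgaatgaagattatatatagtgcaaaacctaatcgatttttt

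A TATA box began 31 bases before the start of LHB1B2 and 34 bases before that of MT2B, and 26 and 71 bases before that of PYK10. MT2B also held a G-box and an I-box core. The ribosomal protein gene AT4G27090 held a telo-box and 2 site II elements, 1 of them on the opposite strand, where it reads GGCCCA. The CAB1 and RBCS1A windows held none of the 5 motifs, which says only that these letters are not in them. Over gene sets, the site II letters stood in 42.2% of 301 ribosomal protein genes and in 11.8% of the 18555 protein-coding genes averaging 1 FPKM or more. The telo-box stood in 11.3% of ribosomal protein genes and in 1.50% of all of these. For the 100 most abundant protein-coding genes and the 18555 genes, the shares were 28% and 24.1% for the TATA box, 8% and 4.27% for the G-box, 13% and 5.34% for the I-box core, 7% and 11.8% for site II, and 2% and 1.50% for the telo-box. In the 20 light-harvesting genes the TATA box stood in 40%, the I-box core and the G-box in 15% each, site II in 5% and the telo-box in none. A match is a description of letters and not a binding site.

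A small part of the genes held much of the transcriptome. Of the 26973 listed genes, 19354 averaged 1 FPKM or more, 10573 averaged 10 or more, 985 averaged 100 or more and 45 averaged 1000 FPKM or more. A further 1545 genes were listed at 0 in every library. The gene at rank 1 held 1.95% of the summed FPKM (SD over libraries 0.295), the top 30 held 12.2% (SD 0.840), the top 100 held 21.4% (SD 0.882) and the top 1000 held 49.4% (SD 0.629). In replicates 1, 2 and 3 the most abundant 100 genes of each library held 20.6%, 22.2% and 22.0%. Down the mean ranking, 1039 genes were needed to reach 50% of the total, while the median listed gene lay at 6.01 FPKM. The most abundant genes were short. Median coding length was 642 bases in the top 100 protein-coding genes, 715.5 bases in those from there to rank 1000 and 1158 bases in the 18556 protein-coding genes averaging 1 FPKM or more. Nuclear protein-coding genes made up 96 of the top 100, and protein-coding genes held 97.2 ± 0.463% of the summed FPKM (SD, n = 3). Transcripts of the plastid genome held 0.512%, 0.761% and 0.630%, and those of the mitochondrial genome held 0.0618 ± 0.00854%.

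**Figure D1:**
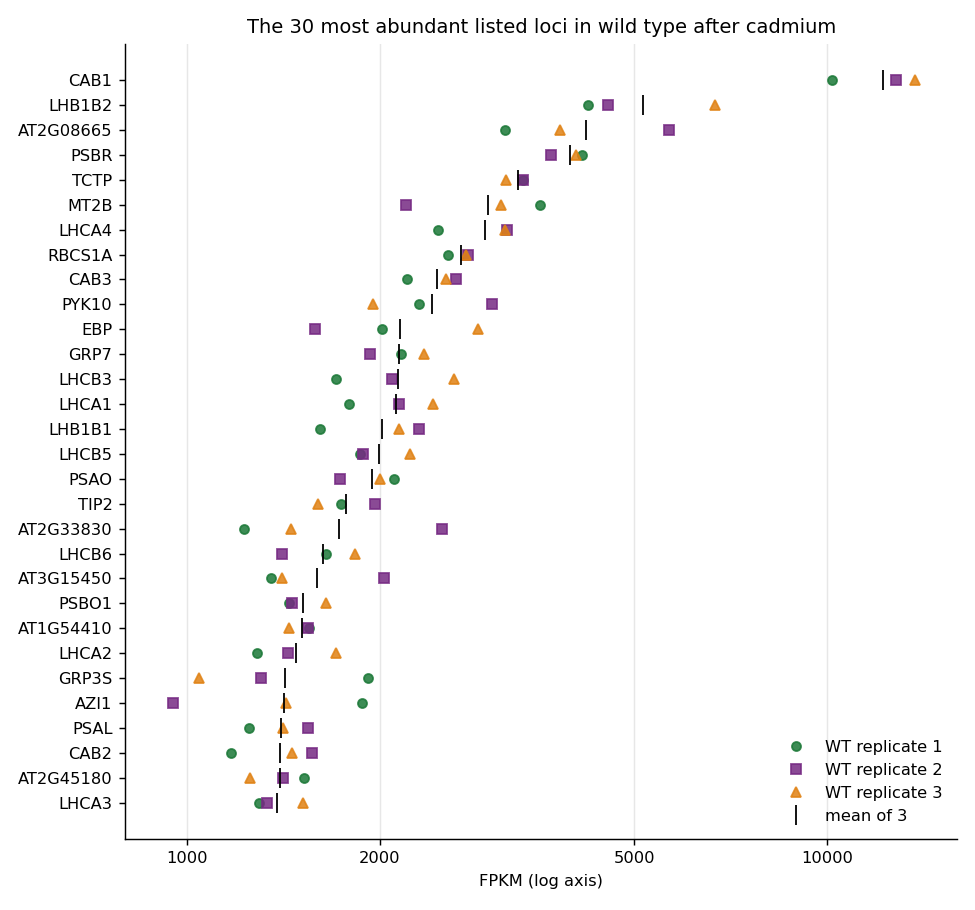
FPKM in each of the 3 wild type libraries (log axis) for the 30 loci with the highest mean, highest at the top; symbols are libraries and the bar is their mean. CAB1, at 10171 to 13733 FPKM, stands above every other locus in all 3 libraries.

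Light-harvesting genes led the ranking, with 12 of the 30 most abundant loci and 16 of the top 100. The 20 genes of this family summed to 5.66%, 6.69% and 7.46% of all FPKM in replicates 1, 2 and 3 (6.60 ± 0.903%, SD, n = 3). Replicate 1 was the lowest library for 18 of the 19 members averaging 10 FPKM or more, while over all 10573 genes at that level it was the lowest for 30.1%. Antenna genes of photosystem II came first. CAB1 (AT1G29930, chr1:10477885-10479114, plus strand) codes for an LHCB1 protein of the main light-harvesting complex and measured 10171, 12814 and 13733 FPKM (12240 ± 1849, SD, n = 3). It ranked first in every library and held 29.6% of the family's FPKM.

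CAB1 stands beside its copies CAB2 and CAB3 in an unbroken run on chromosome 1. CAB3 measured 2207, 2637 and 2538 FPKM and CAB2 1172, 1566 and 1460 FPKM, so CAB1 stood several fold above both in each library. The coding sequences of the 3 copies were 95.6% to 96.4% identical. Reads may therefore have been split unevenly between copies, and the order within this run is uncertain.

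A second LHCB1 pair lies on chromosome 2. LHB1B2 (AT2G34420, chr2:14522524-14523568, minus strand) measured 4235, 4555 and 6693 FPKM and its neighbour LHB1B1 1612, 2307 and 2141 FPKM, with coding sequences 91.4% identical. LHB1B2 was highest in replicate 3 and replicates 1 and 2 lay close together. An annotated non-coding RNA on the other strand, AT2G08665, overlaps LHB1B2 over its 1045 bases and was listed at rank 3 with 3141, 5658 and 3823 FPKM. How the authors treated strand is not given in the sources used here, so reads of these 2 loci cannot be told apart, and the order of the libraries differed between them.

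Other antenna genes of photosystem II lay lower. LHCB3 measured 1711, 2088 and 2612 FPKM, LHCB5 1861, 1887 and 2233 FPKM and LHCB6 1650, 1406 and 1830 FPKM. LHCB6 was the exception to the family's order, with replicate 2 lowest. The photosystem I antenna genes LHCA1 to LHCA4 were all within the top 30. LHCA4 led them with 2465, 3164 and 3135 FPKM, ahead of LHCA1 with 1790, 2147 and 2426 FPKM. LHCA2 and LHCA3 averaged 1479 ± 215 and 1381 ± 120 FPKM (SD, n = 3). LHCA4 lay above LHCA1 in every library and LHCA1 above LHCA2, while the libraries of LHCB3 and LHCA1, neighbours in the ranking, overlapped.

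The 21 nuclear genes for photosystem subunits held 3.58%, 3.37% and 3.71% of the summed FPKM (3.55 ± 0.168%, SD, n = 3), with 15 in the top 100 and a median coefficient of variation (SD as a percent of the mean) of 7.48% over 20 members at 10 FPKM or more, against 13.5% over 19 light-harvesting genes. The highest was PSBR, a subunit near the oxygen-evolving complex of photosystem II, at 4142, 3702 and 4060 FPKM. PSAO and PSAL of photosystem I measured 1948 ± 193 and 1402 ± 150 FPKM, and PSBO1, the manganese-stabilising protein of water oxidation, 1517 ± 112 FPKM (SD, n = 3). The 4 genes for the Rubisco small subunit held 0.648 ± 0.0638%. RBCS1A (AT1G67090, chr1:25048158-25049667) alone held 66.0% of that, at 2560, 2746 and 2728 FPKM, which is a spread of 3.82% of the mean. RBCS3B averaged 838 ± 187, RBCS2B 491 ± 112 and RBCS1B 53.0 ± 27.1 FPKM (SD, n = 3). The coding sequences of RBCS2B and RBCS1B were 97.3% identical, so the split between the RBCS copies is uncertain too. The light-harvesting, photosystem and Rubisco small subunit genes together held 9.81%, 10.7% and 11.9% of all FPKM, and took 17 of the top 30 and 33 of the top 100 places. The plastid genome's own photosynthesis genes stood lower in these libraries, led by ATCG00020 at 509, 1090 and 907 FPKM. Organelle transcripts mostly lack the long poly(A) tails that mRNA kits select for, so their levels are not comparable with nuclear ones.

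**Figure D2:**
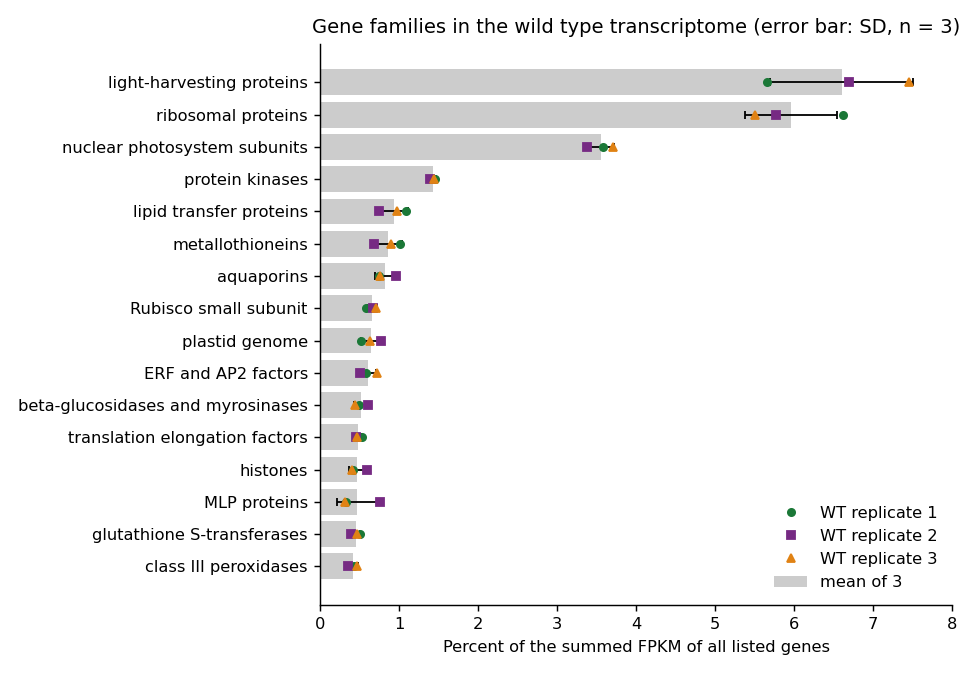
Percent of the summed FPKM of all listed genes held by the 16 gene families with the largest shares; bars are means, error bars SD (n = 3) and symbols the libraries. Light-harvesting genes ranged from 5.66% to 7.46%, ribosomal protein genes from 5.50% to 6.61%, and no other family passed 3.71% in any library.

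Ribosomal protein genes took nearly as large a share through many members of moderate level. The 321 listed genes held 6.61%, 5.77% and 5.50% of the summed FPKM (5.96 ± 0.581%, SD, n = 3), and 144 reached 100 FPKM, but none was in the top 30 and 4 were in the top 100. Replicate 1 was the highest library for 204 of the 269 members at 10 FPKM or more, that is, in the opposite order to the light-harvesting genes, while over all 10573 genes it was the highest for 41.8%. The leading member was AT4G27090, coding for cytosolic ribosomal protein L14, at 845, 804 and 733 FPKM. AT5G20290, an S8e protein, averaged 669 ± 51.4, emb2386, an L19e protein, 646 ± 59.6, and SSR16, an organelle-type S16 protein, 606 ± 100 FPKM (SD, n = 3). Elongation factor genes held 0.477 ± 0.0393% over 26 members, led by the eEF1A gene AT5G60390 at 597, 476 and 503 FPKM. The eEF1A genes are near-identical copies, so their single values are uncertain. TCTP (AT3G16640), the growth-related translationally controlled tumor protein, had rank 5 in every library at 3355, 3350 and 3154 FPKM, a spread of 3.48% of its mean.

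Metallothionein transcripts were abundant, and 4 of the 7 listed genes carried nearly all of the family's level as listed. The value of MT1A is uncertain, as described below, so the split within the family is not settled. The family held 1.00%, 0.680% and 0.899% of the summed FPKM. Its genes are short, and weighted by exon length its mean share was 0.338%, against 0.861% of the summed FPKM. MT2B (AT5G02380, chr5:506498-507244, minus strand) measured 3564, 2197 and 3092 FPKM, had rank 6 by mean and made up 54.7% of the family as listed. MT3 followed with 1567, 1046 and 1523 FPKM, and both genes were lowest in replicate 2. MT3 overlaps a gene on the opposite strand, AT3G03105, over 278 bases, so strand may matter there. MT1C measured 797, 605 and 569 FPKM and MT2A 361, 394 and 459 FPKM, with the libraries in opposite orders.

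The other family members were listed at low values. MT1B lay at 3.41, 2.48 and 1.58 FPKM, MT4B was listed at 0 in all 3 libraries, and MT4A was not analysed here. MT1A (AT1G07600) was listed at 0.143, 0.106 and 0.120 FPKM, but this value is uncertain. Its whole span of 418 bases lies on the same strand inside the annotated locus AT1G07590, a tetratricopeptide repeat gene listed at 1244, 1256 and 1253 FPKM at rank 36. The reads of the 2 loci cannot be told apart from these tables, and neither value should be read as the level of one gene.

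Genes for glutathione and phytochelatin synthesis and for cadmium transport all lay below the 4 abundant metallothioneins. All 20 fixed genes were listed, 17 reached 1 FPKM, 14 reached 10 and 2 reached 100, with a median of 20.3 FPKM against 6.01 FPKM for all listed genes. Of all 26973 listed genes, 19354 reached 1 FPKM, 10573 reached 10 and 985 reached 100. For synthesis, GSH1, the first enzyme of glutathione synthesis, measured 136, 93.1 and 94.4 FPKM, and GSH2, the second enzyme, 72.2, 59.1 and 66.8 FPKM. PCS1, the main phytochelatin synthase, measured 39.2, 27.4 and 26.8 FPKM, and its paralog PCS2 0.523, 0.352 and 0.730 FPKM. GSH1, GSH2 and PCS1 were each highest in replicate 1, and replicates 2 and 3 lay close together for GSH1 and PCS1. Replicate 1 was the highest library for 9 of the 20 genes of the list. Over the 10573 genes averaging 10 FPKM or more it was the highest for 41.8%.

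Among exporters at the plasma membrane, PDR8 (also PEN3), an ABC transporter linked to cadmium efflux, was the most abundant of the list at 228, 163 and 167 FPKM. PCR2, a small membrane protein of zinc and cadmium export, measured 110, 67.3 and 99.8 FPKM, whereas PCR1 was listed at 0, 0 and 0.211 FPKM. HMA4, a pump that loads zinc and cadmium into the xylem, measured 22.0, 32.0 and 24.3 FPKM. Its relative HMA2 lay at 1.78, 4.70 and 4.19 FPKM. For storage in the vacuole, the phytochelatin transporters ABCC1 and ABCC2 averaged 30.8 ± 1.55 and 11.5 ± 1.14 FPKM (SD, n = 3). ABCC3 spread more widely, at 42.8, 28.6 and 17.1 FPKM. The exchangers CAX2 and CAX4 averaged 16.2 ± 0.993 and 2.01 ± 0.137 FPKM (SD, n = 3). HMA3, annotated as a heavy metal ATPase, averaged 0.984 ± 0.256 FPKM (SD, n = 3), and transcript level does not show whether a working pump is made.

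Among uptake and remobilisation genes, NRAMP1, a manganese transporter that can carry cadmium, measured 59.5, 45.7 and 44.1 FPKM. NRAMP3 and NRAMP4, which release metals from the vacuole, averaged 12.7 ± 1.56 and 12.5 ± 1.10 FPKM, and the phloem transporter OPT3 24.4 ± 4.16 FPKM (SD, n = 3). IRT1, the root iron transporter through which cadmium enters, was low at 3.13, 0.885 and 1.77 FPKM, with replicate 1 more than 3 times replicate 2.

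**Figure D3:**
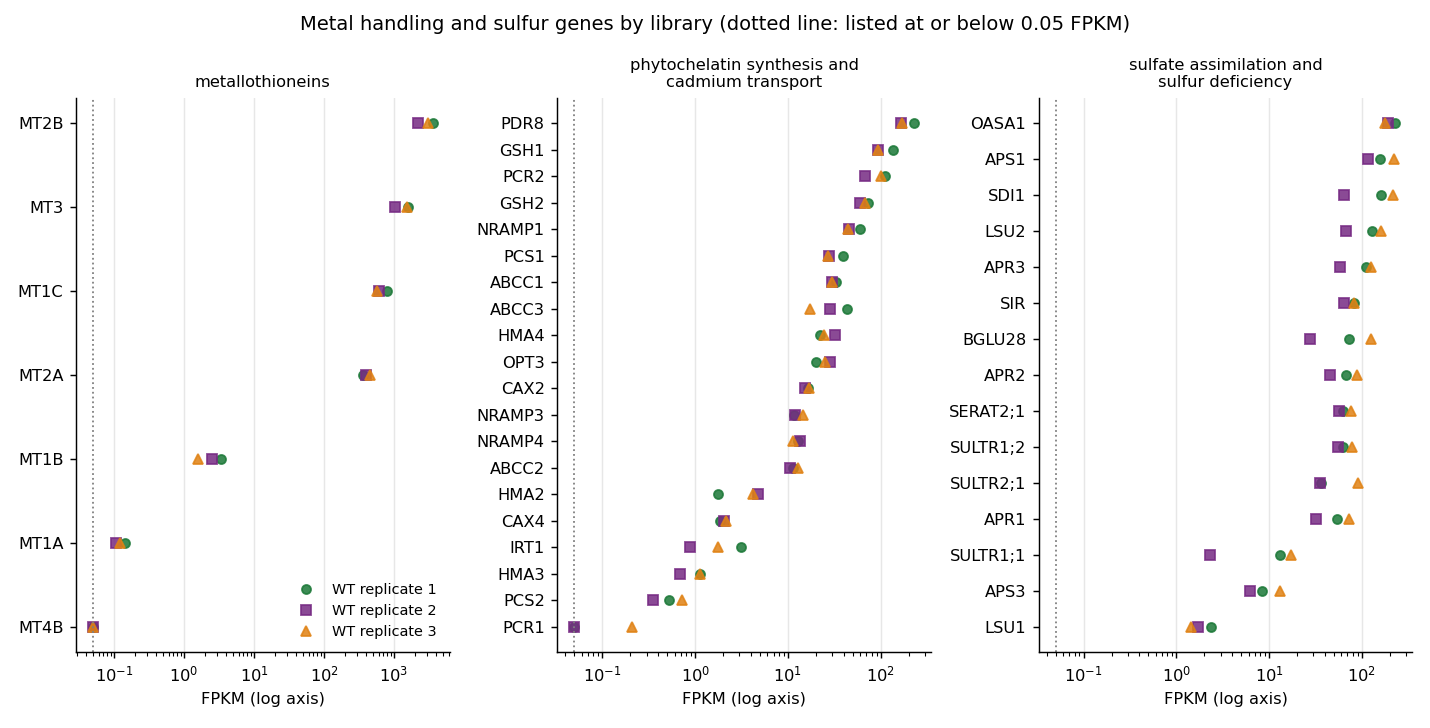
FPKM per library (log axis) for metallothioneins, for phytochelatin synthesis and cadmium transport genes and for sulfur genes; values at or below 0.05 FPKM are drawn at the dotted line. In the sulfur panel replicate 2 is the lowest library for 13 of 15 genes and replicate 3 the highest for 13 of 15.

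In the list of sulfur assimilation, sulfate transport and sulfur deficiency genes, 13 of 15 followed 1 order of the libraries. The list was chosen with earlier results of these data known, and its genes are not independent cases. All 15 were above 1 FPKM, a floor that 71.8% of all listed genes reached, and 13 were above 10 FPKM. Replicate 2 was the lowest for 13 of 15 and replicate 3 the highest for 13 of 15. Over all 10573 genes averaging 10 FPKM or more these shares were 38.4% and 29.0%. Their summed level was 1248, 825 and 1551 FPKM. The most abundant was OASA1, which makes cysteine in the cytosol, at 231, 192 and 176 FPKM, with replicate 3 lowest. APS1, the ATP sulfurylase that activates sulfate, measured 157, 116 and 225 FPKM. Among genes known as markers of sulfur deficiency, SDI1 measured 162, 63.9 and 219 FPKM and LSU2 128, 67.6 and 159 FPKM, so both were more than 2 times lower in replicate 2 than in replicate 3. LSU1, named after its values were seen, went the other way. It was low at 2.34, 1.69 and 1.44 FPKM, with replicate 1 highest and replicate 3 lowest. The root sulfate transporter SULTR1;1, named after its values were seen, measured 13.0, 2.30 and 17.3 FPKM, the largest coefficient of variation of the list at 71.2%. The coefficient of variation of all 15 genes lay above 10.5%, the median over those 10573 genes.

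Genes that remove reactive oxygen were led by catalase and iron superoxide dismutase. CAT3, the most abundant catalase gene, measured 1415, 1061 and 933 FPKM. FSD1, a plastid iron superoxide dismutase, measured 664, 408 and 564 FPKM. APX1, cytosolic ascorbate peroxidase, averaged 219 ± 33.1, and MSD1, the mitochondrial manganese superoxide dismutase, 148 ± 19.6 FPKM (SD, n = 3). CSD1 and CSD2, the copper/zinc superoxide dismutases, named after their values were seen, lay at 51.5 ± 9.35 and 15.0 ± 2.79 FPKM. Of the 10 genes, 7 were highest in replicate 1, which was the highest library for 41.8% of the 10573 genes. In the list of 12 heat shock genes, HSP70-1, a constitutive chaperone, carried most of the level at 818, 734 and 956 FPKM. HSP70-4 and HSP90.1, which heat induces, averaged 21.8 ± 7.87 and 10.1 ± 3.42 FPKM, and HSP101 7.04 ± 2.48 FPKM (SD, n = 3). The median of the list was 1.86 FPKM, and 4 of its 12 genes did not reach 1 FPKM. Glutathione S-transferases, which couple glutathione to toxic compounds, held 0.450 ± 0.0565% of the summed FPKM over 56 genes. GSTF2 led at 528, 338 and 580 FPKM, before GSTF9 with 390 ± 24.1, GSTU19 with 347 ± 29.4 and GSTF10 with 346 ± 81.9 FPKM (SD, n = 3).

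Several families owed most of their share to 1 gene. PYK10 (AT3G09260), the beta-glucosidase of root endoplasmic reticulum bodies, measured 2302, 2996 and 1953 FPKM and held 75.6% of the FPKM of 37 beta-glucosidase and myrosinase genes. EBP (AT3G16770), an ERF transcription factor of ethylene signalling also called RAP2.3, measured 2020, 1583 and 2850 FPKM at rank 11. It held 57.3% of the FPKM of 146 ERF and AP2 genes found by name, whose next members RAP2.2 and RAP2.4 averaged 266 ± 43.1 and 189 ± 9.61 FPKM (SD, n = 3). By contrast, the 67 WRKY and 91 NAC genes held 0.105 ± 0.00247% and 0.135 ± 0.00553% of the total, and 772 protein kinase genes 1.43 ± 0.0327% with a highest member at 150 FPKM. The 252 pentatricopeptide repeat genes found by name, which code for organelle RNA-binding proteins, held 0.155 ± 0.00554%.

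Aquaporins, channels for water, held 0.739%, 0.951% and 0.749% of the summed FPKM, highest in replicate 2. The vacuolar water channel gene TIP2 (AT3G26520) measured 1740, 1967 and 1600 FPKM, DELTA-TIP 727, 887 and 631 FPKM, and the plasma membrane genes PIP1B and PIP1C 441, 676 and 490 FPKM and 180, 407 and 247 FPKM. All 4 were highest in replicate 2, as were 11 of the 23 members at 10 FPKM or more, while 10 were highest in replicate 3. Over all 10573 genes these shares were 29.1% and 29.0%. Lipid transfer proteins held 1.09%, 0.738% and 0.966%, lowest in replicate 2. AZI1, a lipid transfer-like protein of systemic immunity, measured 1879, 950 and 1427 FPKM and its relative EARLI1 645, 77.9 and 678 FPKM. AT2G45180 was steadier at 1521, 1411 and 1254 FPKM. LTP2 averaged 407 ± 123 FPKM (SD, n = 3).

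The remaining loci of the top 30 belong to other functions. GRP7, a clock-controlled RNA-binding protein, measured 2157, 1933 and 2349 FPKM. GRP3S, a glycine-rich protein, measured 1919, 1305 and 1042 FPKM. The dormancy/auxin-associated gene AT2G33830 measured 1227, 2506 and 1455 FPKM, and AT3G15450, with YGL and LRDR motifs, 1354, 2032 and 1406 FPKM, so both stood highest in replicate 2. The dehydrin gene AT1G54410 differed little, at 1549, 1546 and 1444 FPKM. Of the top 30 loci 9 overlap another listed gene, a share of 30%, against 30.1% of all 19354 genes averaging 1 FPKM or more.

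The 3 libraries agreed closely for most genes. Over the 10573 genes averaging 10 FPKM or more, the median coefficient of variation was 10.5%, with quartiles of 6.35% and 16.6%, and 184 genes (1.74%) passed 50%. By level, the median was 17.7% from 1 to 10 FPKM, 10.3% from 10 to 100, 12.0% from 100 to 1000 and 12.2% at 1000 FPKM and above. Counting error alone would give medians of 9.37%, 4.09%, 1.66% and 0.585% in these bins. Replicate 2 lay more than 2 times above both other libraries in 42 genes and more than 2 times below both in 83. These counts were 32 and 49 for replicate 1 and 22 and 31 for replicate 3. Among families, tubulins (0.318 ± 0.0113%) and actins (0.139 ± 0.00176%) kept nearly the same share in all libraries. Histone genes held 0.407%, 0.588% and 0.400%, with replicate 2 the highest for 33 of 34 members at 10 FPKM or more, against 29.1% of the 10573 genes.

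**Figure D4:**
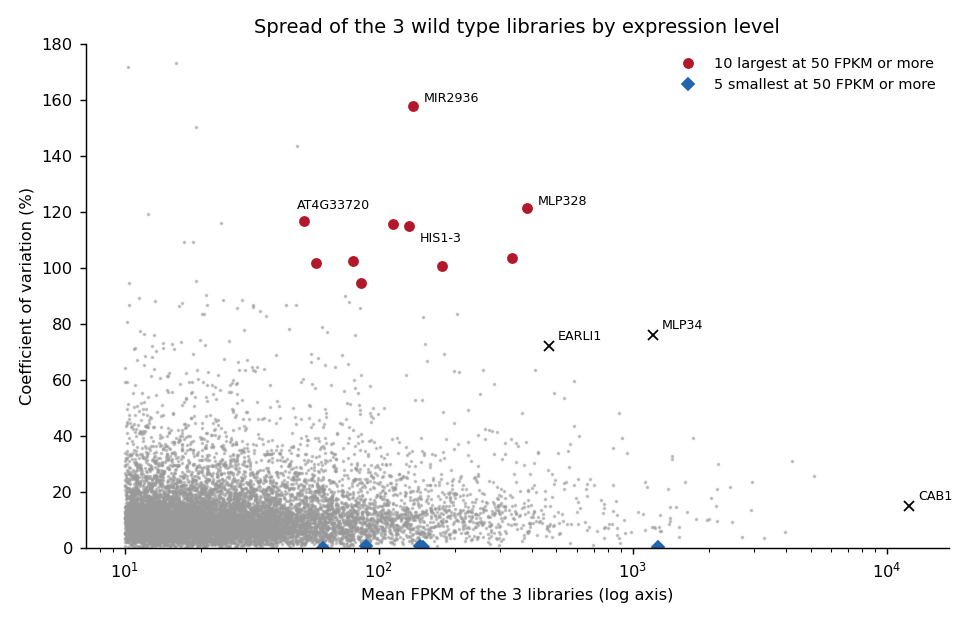
Coefficient of variation over the 3 wild type libraries (percent) against mean FPKM (log axis) for 10573 genes; circles are the 10 largest and diamonds the 5 smallest at 50 FPKM or more, and crosses mark 3 further genes. The median gene lies at 10.5%, and CAB1 at 15.1%.

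The 10 most variable genes among the 2342 that averaged 50 FPKM or more were highest in replicate 2 in 7 cases. Over the 10573 genes averaging 10 FPKM or more, a wider set than the 2342, this share was 29.1%. The 7 include SAG21 and ENSRNA049757982, which overlap at the same place, as described below, and are not separate cases. Replicate 1 was the lowest library in 6 of the 10. All 10 were picked by their spread over these same libraries, and some averaged 50 FPKM only through 1 high library. The counts therefore describe the picked genes only. MLP328, a major latex protein-like gene, measured 88.0, 918 and 143 FPKM. The cysteine protease gene AT4G11320 measured 98.6, 735 and 173 FPKM. HIS1-3, a linker histone variant known to respond to drought, measured 26.1, 304 and 63.0 FPKM. TPS-CIN (AT3G25830), a terpene synthase gene of roots, measured 17.2, 174 and 63.8 FPKM, and it has a near copy of the same name that may share its reads. In these 4 genes replicate 2 stood highest, replicate 3 between and replicate 1 lowest.

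The others, apart from SAG21, followed different orders. AT4G33720, a PR-1-like secreted protein gene, measured 29.8, 4.79 and 117 FPKM. AT1G49500 measured 72.7, 163 and 1.40 FPKM, so it was listed far lower in replicate 3. Whether that value is a lack of transcript or a failed estimate was not tested. UBQ14, a polyubiquitin gene whose repeats resemble those of other ubiquitin genes, measured 122, 19.6 and 26.9 FPKM. The last 3 of the 10 share 1 place. The microRNA gene MIR2936 and the annotated RNA ENSRNA049757982 span the same 180 bases, chr4:1046804-1046983 on the minus strand, inside SAG21, a senescence-associated gene. MIR2936 was listed at 6.58, 17.7 and 386 FPKM, ENSRNA049757982 at 143, 369 and 17.6 FPKM and SAG21 at 18.7, 264 and 58.8 FPKM. Reads of the 3 annotations cannot be told apart, so none of these values is a measure of the microRNA.

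**Figure D5:**
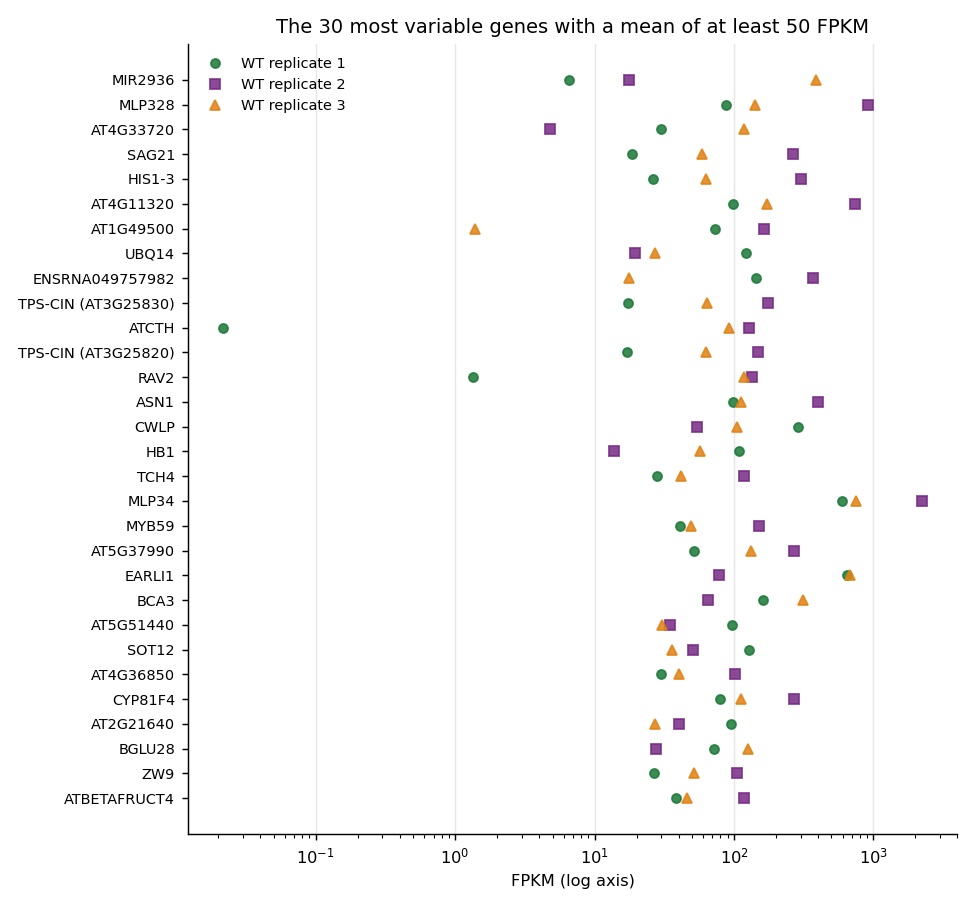
FPKM per library (log axis) of the 30 most variable genes averaging 50 FPKM or more, most variable at the top. In MLP34, for example, replicate 2 reaches 2246 FPKM and replicates 1 and 3 lie at 593 and 750 FPKM.

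Further genes with wide spreads, named after their values were seen, showed 3 patterns. ASN1, an asparagine synthase known for rising in darkness and low sugar, measured 97.8, 400 and 113 FPKM, and MLP34 593, 2246 and 750 FPKM, both highest in replicate 2. HB1, a haemoglobin gene known from low oxygen, measured 108, 13.9 and 57.2 FPKM and was lowest in replicate 2. ATCTH, a CCCH zinc finger gene, measured 0.0215, 128 and 91.5 FPKM, and the transcription factor gene RAV2 1.34, 135 and 117 FPKM, both nearly absent from replicate 1. The MLP family, also added after its values were seen, held 0.327%, 0.752% and 0.311% of the summed FPKM over 9 genes.

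The 5 steadiest genes at 50 FPKM or more had coefficients of variation under 1%. SUC2, the sucrose transporter that loads the phloem, measured 60.3 FPKM in each library. AT3G54210, an organelle-type L17 ribosomal protein gene, measured 149, 150 and 149 FPKM. CLPR1, a subunit of the plastid Clp protease, measured 89.5, 88.5 and 89.2 FPKM, and the ATP synthase gene AT5G08670 145, 146 and 145 FPKM. The last of the 5 was AT1G07590, described above with MT1A.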

How the data were processed

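The deposited tables give 1 value per gene and library. The deposited values are taken as FPKM made by the authors; the unit was inferred from the values, which sum to nearly 1 total in every library once multiplied by exon length, since no label or header names it. The 3 deposited tables are identical, so 1 was used. Per the labels' protocols, TRIzol was used to extract RNA and a SMARTer mRNA kit to prepare the libraries. The submitters' processing notes name GRCm38 and mm10, which are mouse builds, but 26513 of 26973 gene identifiers matched RefSeq's TAIR10.1 annotation, with start and end equal for 26504. The sources used here do not give the aligner, the counting program or the treatment of strand and of shared reads.

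Depth was rebuilt from low values, of which 99.6% to 99.7% fell within 0.05 of a step, with 4 steps to a unit. Means, SDs and coefficients of variation were computed on FPKM with no pseudocount in Python 3.11.15 (pandas 2.3.3, numpy 2.4.6, Biopython 1.88). Only the functions for depth, coefficient of variation and top shares had been tested on simulated data. Those data were made with 4 steps to a unit, so they cannot check that setting. Families were found by symbol or product name. Text names the 30 highest loci, the 4 highest members of a family or list, all metallothionein and cadmium list members, and the 10 most and 5 least variable genes at 50 FPKM or more; other genes are marked where named. The members and lists were chosen with earlier results of these data known. No test was made.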

Additional observations from a re-analysis of the deposited data

How the results depend on the processing

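Of 68 alternative values computed, 56 stayed within the spread of the libraries (counts within 1.5 times) and 12 moved. This tally does not measure robustness. Leaving out 1 of 3 libraries cannot move a mean share by more than the SD of the same libraries. The limit for counts was wide too. Gene counts of 14394 at a floor of 5 FPKM and 25428 above 0 both passed as unchanged from 19354. Counting reads instead of transcripts (FPKM times exon length) gave 17.3% for the top 100, and 5.23% for light-harvesting, 3.79% for ribosomal protein, 2.19% for photosystem, 2.31% for protein kinase, 0.580% for lipid transfer, 0.338% for metallothionein and 0.517% for Rubisco small subunit genes. These shifts follow from weighting by length. The aquaporin share, at 0.719%, did not leave its spread. The median coefficient of variation was 13.0% with genes from 1 FPKM and 17.0% with no filter, where low genes enter. Leaving out 1 library in turn gave medians of 7.58% to 9.60% over pairs, where the smaller number of libraries lowers the value by construction. It also gave 21.2% to 21.9% for the top 100, 6.17% to 7.07% for light-harvesting genes, and 28 to 29 of the 30 most abundant loci retained. Ranking by reads retained 24 of the 30. Of the 10 most variable genes 7 were retained when ranked by the SD of log2(FPKM + 1). No paired analysis was possible because only the wild type group was used and no test was made. Steps of the values limit low genes, and genes at 0 may be failed estimates.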
